A study of Mus musculus with 4 samples.

Results

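The miR-23/27/24 microRNAs come from 2 paralogous clusters of 3 hairpins each, Mir23a/Mir27a/Mir24-2 and Mir23b/Mir27b/Mir24-1. They were taken by name from small RNA counts of MEFs, fibroblasts cultured directly from mouse embryos. This gave 9 of 508 listed microRNAs: the 5 guide strands mmu-miR-23a, mmu-miR-23b, mmu-miR-27a, mmu-miR-27b and mmu-miR-24, written here without the species prefix, and the 4 star arms miR-27a*, miR-27b*, miR-24-1* and miR-24-2*. No star arm of miR-23a or miR-23b stood among the listed rows. All 4 libraries came from cells that carry shLuc.1309, a transgene for a short hairpin RNA (shRNA) whose target, firefly luciferase, does not exist in mice. The 4 groups of 1 library each were shLuc.1309;ROSA-rtTA with doxycycline (rtTA +dox), shLuc.1309;ROSA-rtTA without it (rtTA -dox), shLuc.1309 alone with doxycycline (no rtTA +dox) and shLuc.1309 alone without it (no rtTA -dox). rtTA, the reverse tetracycline transactivator, needs doxycycline (dox) to bind and activate a tetracycline-responsive promoter, and ROSA in its name stands for the Rosa26 locus. The labels used here state neither the dose and duration of dox nor the age or number of embryos behind a library.

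The libraries held 7690978 counts (rtTA +dox), 8780954 (rtTA -dox), 6545093 (no rtTA +dox) and 6383594 (no rtTA -dox). The shRNA took 2.38% of the counts in the rtTA +dox library and 0.0725% to 0.0786% in the others. Of 8 fibroblast and mesenchymal markers 7 were listed, and together they reached 427136 to 444856 per 1000000 endogenous counts (CPM), while 6 epithelial markers together reached 4.86 to 17.4 CPM. Of these 6, 1 was at 0 in rtTA -dox and none elsewhere. All levels are on this CPM scale, with the shRNA left out and no scaling by length. A ratio between 2 libraries has a 95% interval from the counts, and only a ratio of 2-fold or more whose interval left out a ratio of 1 made a microRNA count as higher or lower. Each group is 1 library, so nothing here has a replicate check or a p-value, and the values compare libraries rather than conditions. In such bulk RNA, fewer cells of a type and less of a microRNA per cell cannot be told apart.

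The hairpins of a cluster are cut from a shared primary transcript by Drosha, and Dicer then frees a duplex, of which the guide strand is kept in an Argonaute protein while the star strand is mostly lost. The guide finds its target messenger RNAs mainly by its seed, bases 2 to 8, so the paralogs with equal seeds share most of their predicted targets. In mouse cells, miR-27 is known for lowering PPARγ and thereby holding back fat cell formation, and miR-23 and miR-27 for promoting the sprouting of endothelial cells. In human cell lines, miR-24 is known for lowering cell cycle regulators such as MYC.

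The mature sequences show why the 9 fall into few seed groups, and why reads of some are hard to assign. They are given as DNA letters, as deposited, with the seed in capitals.
miR-23a: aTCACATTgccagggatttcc
miR-23b: aTCACATTgccagggattacc
miR-27a: tTCACAGTggctaagttccgc
miR-27b: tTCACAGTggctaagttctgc
miR-24: tGGCTCAGttcagcaggaacag
miR-27a*: aGGGCTTAgctgcttgtgagca
miR-27b*: aGAGCTTAgctgattggtgaac
miR-24-2*: gTGCCTACtgagctgaaacagt
miR-24-1*: gTGCCTACtgagctgatatcagt
Counted from the 5′ end, miR-23b differs from miR-23a only by T19A, and miR-27b from miR-27a only by C19T. How the authors assigned a read that fits both is not known here, so the division of counts within these 2 pairs is uncertain. Their sums do not change with that division, but would if such reads were counted for both or dropped. The star arms are easier to tell apart: miR-27a* and miR-27b* differ at 8 positions, and miR-24-1* and miR-24-2* share their 16 bases at the start and then part. No other listed microRNA shared a seed with any of the 9.

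The hairpins of miR-27 and miR-24 show how the arms lie. They are RefSeq sequences in RNA letters (build GRCm38.p6, plus strand), with the listed arms in capitals, star arm before guide.
Mir27a: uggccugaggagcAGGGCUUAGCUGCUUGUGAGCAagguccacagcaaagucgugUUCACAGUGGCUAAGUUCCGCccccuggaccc
Mir27b: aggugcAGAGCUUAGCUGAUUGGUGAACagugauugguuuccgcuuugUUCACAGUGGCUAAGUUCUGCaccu
Mir24-2: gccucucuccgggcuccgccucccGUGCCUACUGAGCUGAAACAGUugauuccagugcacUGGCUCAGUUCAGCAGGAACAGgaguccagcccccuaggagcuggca
Mir24-1: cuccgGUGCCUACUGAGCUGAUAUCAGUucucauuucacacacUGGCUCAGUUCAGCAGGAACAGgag
Both miR-24 hairpins hold the same guide strand, so the counts of miR-24 cannot be divided between the clusters, whereas its star arms can.

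All 9 sequences matched their RefSeq hairpins. The Mir23a cluster spans 404 bases, with Mir23a at chr8:84208518-84208592, Mir27a at chr8:84208672-84208758 and Mir24-2 at chr8:84208815-84208921. In the GENCODE M21 annotation of the same build it lies in no protein-coding gene; the end of Mir24-2 touches the long noncoding RNA Gm26532 by 2 bases. The Mir23b cluster spans 792 bases, with Mir23b at chr13:63300484-63300557, Mir27b at chr13:63300712-63300784 and Mir24-1 at chr13:63301208-63301275. It lies within the gene 2010111I01Rik on the same strand, in an intron for Mir23b and overlapping an annotated exon of at least some transcripts for Mir27b and Mir24-1. Introns of Fancc lie on the opposite strand. Opposite each Mir24 hairpin the annotation places another microRNA gene, Mir3074-2 and Mir3074-1.

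The 9 microRNAs were abundant as a group. They took 5.45% of the endogenous counts in the rtTA +dox library, 6.45% in rtTA -dox, 5.47% in no rtTA +dox and 5.75% in no rtTA -dox, almost all of it as guide strands. miR-24 led in each library, with 35576 CPM in rtTA +dox, 37489 in rtTA -dox, 29978 in no rtTA +dox and 33090.5 in no rtTA -dox, and ranked 5 or 6 among all endogenous microRNAs. miR-27b followed, with 9637, 11566, 11702 and 9875 CPM in the same order of libraries. The highest of its 4 values was 1.21 times the lowest, and that of miR-24 1.25 times. The median of this ratio was 1.58 over the 372 microRNAs past the floor on low counts and 1.44 over the 100 most abundant.

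miR-23a and miR-27a came next, and their order depended on the library. miR-23a had 3043 CPM in rtTA +dox, 6248 in rtTA -dox, 4357 in no rtTA +dox and 5882 in no rtTA -dox. miR-27a had 3962, 4752, 5708 and 4984 CPM in the same order. miR-23a was above miR-27a in the 2 libraries without dox and below it in both with dox. miR-23b was the rarest guide strand in every library, with 1849.9 CPM in rtTA +dox, 4078 in rtTA -dox, 2635 in no rtTA +dox and 3329 in no rtTA -dox. The range was wide for the miR-23 paralogs: the highest value of miR-23a was 2.05 times its lowest and that of miR-23b 2.20 times. Of all microRNAs past the floor, 79.8% had a smaller such ratio than miR-23a and 84.4% a smaller one than miR-23b.

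The star arms lay far below the guides. miR-27b* had 309.9 CPM in rtTA +dox, 209.6 in rtTA -dox, 168 in no rtTA +dox and 197 in no rtTA -dox. miR-27a* had 94.0, 64.3, 50.8 and 67.1 CPM in the same order, and both were highest in the rtTA +dox library. The star arms of miR-24 were lowest in that library, with intervals that overlap those of no rtTA -dox. miR-24-2* had 35.7, 43.1, 50.3 and 36.2 CPM. miR-24-1* had 5.19, 9.12, 10.4 and 6.90 CPM on only 39, 80, 68 and 44 counts. Neighbours in the order of levels were apart beyond counting error in each library except for miR-27a* and miR-24-2* in no rtTA +dox (332 and 329 counts). None of the 9 was at 0 in any library, and all 9 passed the floor.

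**Figure D1:**
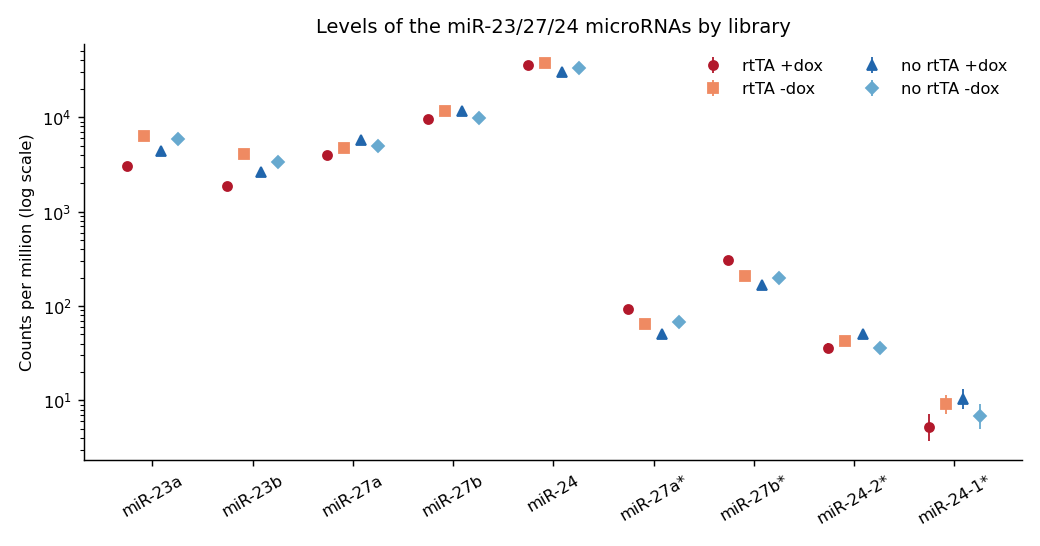
Level of each of the 9 microRNAs in each library, in CPM on a log axis, guide strands left and star arms right; each point is 1 library and bars are 95% counting intervals. The miR-23 guides are lowest in rtTA +dox (3043 and 1849.9 CPM), where miR-27a* and miR-27b* are highest (94.0 and 309.9 CPM).

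The comparison of dox in rtTA cells asks what goes with a strongly expressed shRNA. The miR-23 paralogs were lower there, while miR-27 and miR-24 stayed within 1.20-fold. miR-23a was at 3043 CPM in the rtTA +dox library, against 6248 CPM in rtTA -dox, a log2 ratio of -1.04 (95% interval -1.06 to -1.02). miR-23b was at 1849.9 CPM against 4078 CPM, a log2 ratio of -1.14 (-1.17 to -1.11). Both counted as lower and none of the 9 as higher, so 2 of 9 stand against 32 of 372 microRNAs (8.6%) that counted as lower, and 0 of 9 against 1.34% that counted as higher. With the trend on G content described further on subtracted, they were at -0.66 and -0.77, short of 2-fold. Because the 2 differ by 1 base they are not separate evidence: with near-identical paralogs summed, 1 of 7 counted. The summed miR-23 seed had 4893 CPM in rtTA +dox and 10325 CPM in rtTA -dox, 2.11-fold less with dox.

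The cluster mates of miR-23 were not apart by the 2-fold rule. miR-27a was at 3962 CPM in rtTA +dox against 4752 CPM in rtTA -dox, a log2 ratio of -0.26 (-0.28 to -0.24). miR-27b was at 9637 CPM against 11566 CPM, also -0.26 (-0.28 to -0.25). miR-24 differed least, with 35576 CPM against 37489 CPM (-0.076, -0.083 to -0.068). The star arms of miR-27 pointed the other way from their guides: miR-27a* had 94.0 CPM in rtTA +dox and 64.3 CPM in rtTA -dox (0.55, 0.39 to 0.71), and miR-27b* had 309.9 and 209.6 CPM (0.56, 0.48 to 0.65). miR-24-2* was at -0.27 (-0.50 to -0.04) and miR-24-1* at -0.81 (-1.40 to -0.24, on 39 and 80 counts). The median log2 ratio of the 9 was -0.26, against -0.06 over all 372.

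**Figure D2:**
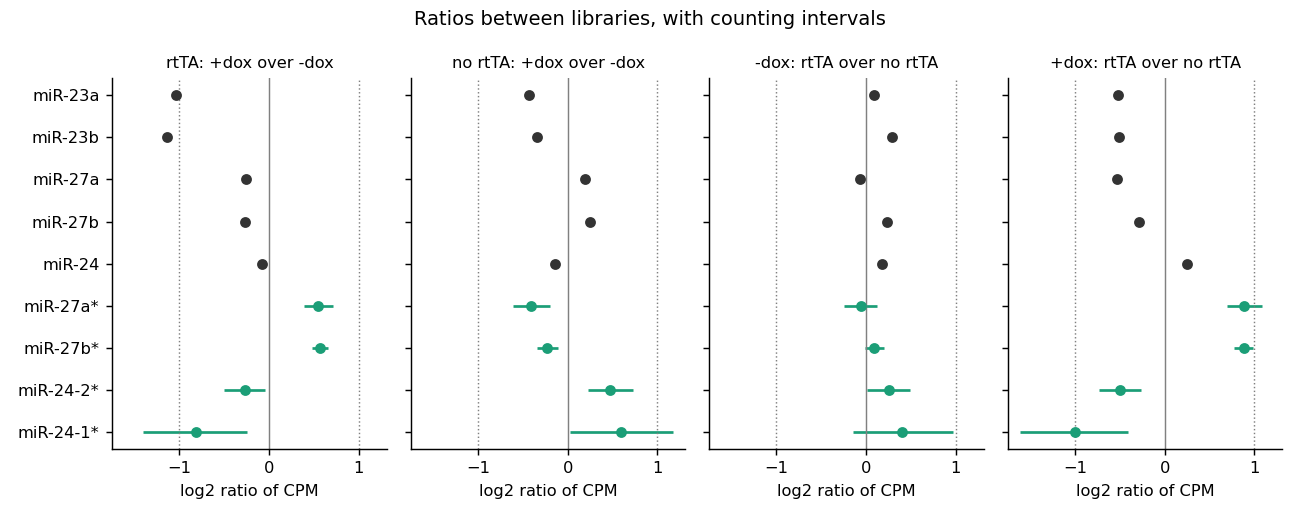
Log2 ratio of CPM between 2 libraries for each of the 9 microRNAs in the 4 comparisons, with 95% counting intervals; black are guide strands, green are star arms, and dotted lines mark 2-fold. Only miR-23a (-1.04) and miR-23b (-1.14) with dox in rtTA cells, and miR-24-1* (-1.001) with rtTA under dox, reach 2-fold.

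Cells that lack rtTA show what goes with dox while the shRNA stays low. None of the 9 counted as higher or lower, beside 1.61% of the 372 microRNAs counted in either direction. miR-23a had 4357 CPM in no rtTA +dox and 5882 CPM in no rtTA -dox, a log2 ratio of -0.43 (-0.46 to -0.41), and miR-23b had 2635 and 3329 CPM (-0.34, -0.37 to -0.31). miR-27a was at 0.20 (0.17 to 0.22) and miR-27b at 0.24 (0.23 to 0.26). The seeds of miR-23 and miR-27 thus pointed opposite ways. This held for both loci as counted, but the paralogs differ by 1 base, so the loci are not separate evidence. miR-24 was at -0.14 (-0.15 to -0.13). Here miR-27a* and miR-27b* were below 0 (-0.40, -0.61 to -0.19, and -0.23, -0.34 to -0.11), while miR-24-2* (0.47, 0.23 to 0.72) and miR-24-1* (0.59, 0.02 to 1.17) were above it. The median of the 9 was -0.14, against -0.04 over all 372.

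Within a cluster, the balance of miR-23 to miR-27 separated the libraries with dox from those without. Such a ratio of 2 microRNAs in 1 library does not depend on the scaling. The count of miR-23a was 0.768 times that of miR-27a in rtTA +dox and 1.31 times in rtTA -dox, a log2 change of -0.78 (-0.81 to -0.74). Without rtTA it was 0.763 times with dox and 1.18 times without (-0.63, -0.66 to -0.60). The Mir23b cluster had the same order: miR-23b was 0.192 times miR-27b in rtTA +dox and 0.353 times in rtTA -dox (-0.88, -0.91 to -0.85), and 0.225 times in no rtTA +dox against 0.337 times in no rtTA -dox (-0.58, -0.62 to -0.55). At both loci the 2 dox libraries lay below both libraries without dox, although no change reached 2-fold. How often other pairs of microRNAs part the libraries in this way was not computed. The loci are not separate evidence either, since the paralogs differ by 1 base and the assignment of shared reads is unknown. The ratio of miR-23 to miR-27 was chosen after its values had been seen. With 1 library per group its spread between cultures is unknown.

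**Figure D3:**
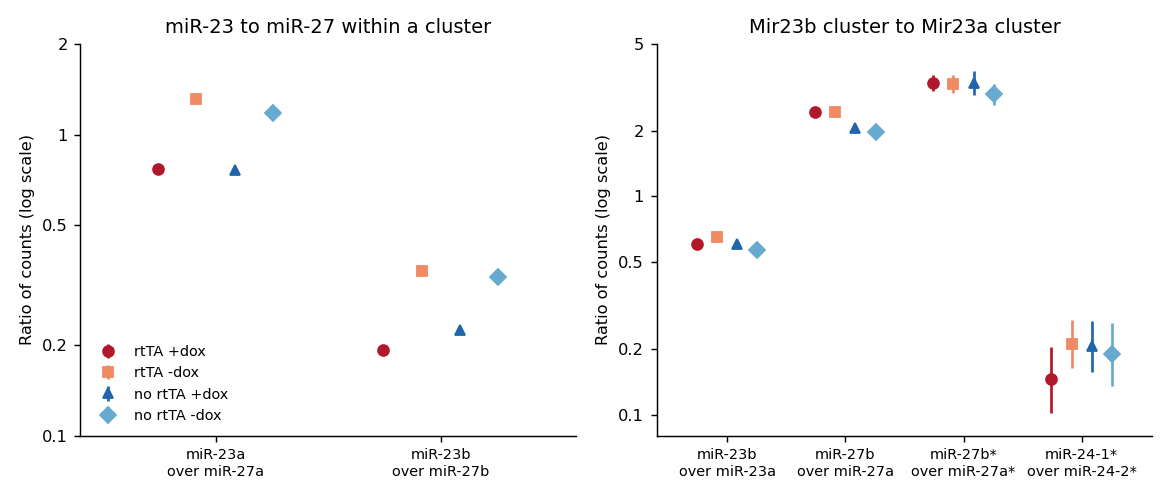
Ratios of counts within a library on log axes, with 95% counting intervals, for miR-23 to miR-27 of the same cluster (left) and for the Mir23b cluster to the Mir23a cluster (right). miR-23a over miR-27a is 0.768 and 0.763 in the dox libraries and 1.31 and 1.18 in those without dox, while miR-27b over miR-27a is 2.43 in both rtTA libraries.

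For 8 of the 9, the dox ratio in rtTA cells and that in cells lacking rtTA were within 2-fold of each other. The exception was miR-24-1*, with -0.81 with rtTA and 0.59 without, a difference of -1.39 (-2.16 to -0.62) on few counts. It was 1 of 9 lower and 0 of 9 higher, beside 12.4% lower and 5.65% higher among the 372. For miR-23a the difference was -0.60 (-0.64 to -0.57) and for miR-23b -0.80 (-0.84 to -0.76), since both ratios were below 0 and the one with rtTA was farther from it. For miR-27a and miR-27b it was -0.46 (-0.49 to -0.43) and -0.51 (-0.53 to -0.49), with opposite signs of the 2 ratios. miR-24 had nearly equal ratios, with a difference of 0.07 (0.06 to 0.08). miR-27a* (0.95, 0.69 to 1.21) and miR-27b* (0.79, 0.64 to 0.94) had the differences farthest above 0. Counted by TMM or DESeq2 scaling, miR-27a* also passed 2-fold (1.03 and 1.01). With the G trend subtracted its difference was 0.49, and those of miR-23a and miR-23b were -0.18 and -0.38. The sign turned for miR-24, to -0.16.

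rtTA without dox compares the genotypes while the shRNA is not induced, and the 9 differed little. None counted, beside 1.88% of all 372 in either direction, and the median was 0.18 against -0.07 over all. miR-23b had 4078 CPM in rtTA -dox and 3329 CPM in no rtTA -dox (0.29, 0.27 to 0.32), miR-27b had 11566 and 9875 CPM (0.23, 0.21 to 0.24) and miR-24 had 37489 and 33090.5 CPM (0.18, 0.17 to 0.19). miR-23a was at 0.09 (0.07 to 0.11) and miR-27a at -0.07 (-0.09 to -0.05). The guides of the Mir23b cluster thus lay farther above 0 than those of the Mir23a cluster. Of the star arms, miR-24-2* was at 0.25 (0.01 to 0.49), and the intervals of the other 3 included 0.

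With dox in both, the induced library was set against the cells without rtTA; this comparison shares libraries with the comparisons above. 1 of 9 counted as lower and 0 as higher, beside 14.2% and 2.42% of all 372, a share close to the background. It was miR-24-1*, with 5.19 CPM in rtTA +dox and 10.4 CPM in no rtTA +dox (-1.001, -1.61 to -0.41, on 39 and 68 counts), and it was no longer 2-fold apart by TMM (-0.90) or DESeq2 scaling (-0.90). miR-23a (-0.52), miR-23b (-0.51) and miR-27a (-0.53) were alike, miR-27b was at -0.28, and miR-24 at 0.25 (0.24 to 0.26). miR-27a* had 94.0 CPM in rtTA +dox and 50.8 CPM in no rtTA +dox (0.89, 0.70 to 1.08) and miR-27b* had 309.9 and 168 CPM (0.88, 0.78 to 0.99), both short of 2-fold.

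The balance of assigned counts between the loci can be described from 4 paralog pairs. None changed by 2-fold in any comparison, where 20 other pairs of listed microRNAs that differ by 1 base held 5%, 5%, 0% and 5% of changed pairs. miR-23b took 37.8% of the miR-23 counts in rtTA +dox, 39.5% in rtTA -dox, 37.7% in no rtTA +dox and 36.1% in no rtTA -dox. miR-27b took 70.9%, 70.9%, 67.2% and 66.5% of the miR-27 counts in the same order, so more of the miR-23 was assigned to the Mir23a cluster and more of the miR-27 to the Mir23b cluster. miR-27b* took 76.7%, 76.5%, 76.8% and 74.6% of the miR-27 star counts. miR-24-1*, the star arm from the Mir23b cluster, took only 12.7% (9.19% to 16.95%), 17.5% (14.1% to 21.3%), 17.1% (13.6% to 21.2%) and 16.0% (11.9% to 20.9%, exact Clopper-Pearson 95% intervals) of the miR-24 star counts. Which cluster had the larger share of counts thus differed between the pairs. The guide shares rest on an unknown assignment of reads and the miR-24 shares on star arms alone. They do not measure the output of a locus.

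The paralogs held their ratio closely when dox was given to rtTA cells. miR-27b over miR-27a was 2.43 in both rtTA libraries, a log2 change of -0.00081 (-0.026 to 0.025), and miR-23b over miR-23a was 0.608 in rtTA +dox and 0.653 in rtTA -dox (-0.10, -0.14 to -0.07). Among the 20 other pairs, the median absolute log2 change in this comparison was 0.28, and 0 of the 20 changed less than miR-27 and 3 less than miR-23. Between the genotypes without dox the shift was larger than in most such pairs: 0.30 (0.27 to 0.32) for miR-27 and 0.21 (0.17 to 0.24) for miR-23, toward the Mir23b cluster in rtTA -dox, with a smaller change in 16 and 13 of the 20 pairs. The 20 pairs were not matched to miR-23 and miR-27 in G content or counts. The miR-23 guides have equal G content, as have the miR-27 guides, while some of the 20 pairs differ in it and some are rare. Pairs share microRNAs and, as above, the assignment of shared reads is unknown, so these are descriptions.

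The star arm of miR-27 had its highest share of the hairpin's counts in the induced library at both loci. miR-27a* took 2.32% (2.15% to 2.49%) of the counts of both arms in rtTA +dox, 1.33% (1.23% to 1.45%) in rtTA -dox, 0.881% (0.790% to 0.981%) in no rtTA +dox and 1.33% (1.21% to 1.46%) in no rtTA -dox. miR-27b* took 3.12%, 1.78%, 1.42% and 1.95% in the same order, and for both the rtTA +dox library was highest and the no rtTA +dox library lowest. With rtTA under dox the odds of the star arm rose 2.67-fold for miR-27a (log2 1.42, 1.23 to 1.60) and 2.23-fold for miR-27b (1.16, 1.06 to 1.26). As background served the 125 hairpins whose arms pair by name, with at least 20 counts for both arms together in each library. Of these 125, 8 (6.4%) had odds of the rarer arm at least 2-fold higher in that comparison, and 2 of the 8 are miR-27a and miR-27b. The median log2 odds ratio of the 125 was -0.07. With the G trend subtracted, the changes of miR-27a and miR-27b were 0.77 and 0.75, short of 2-fold. With dox in rtTA cells the log2 changes were 0.81 (0.65 to 0.97) for miR-27a and 0.83 (0.74 to 0.92) for miR-27b, and with dox alone they were -0.60 (-0.81 to -0.39) and -0.47 (-0.59 to -0.35). Neither of these, nor the changes with rtTA alone (0.0064 and -0.14), reached 2-fold higher, which 4%, 3.2% and 2.4% of the 125 did. The star arms can be told apart, but the guides they are set against differ by 1 base. The division of guide counts is uncertain, so the loci are not fully separate evidence.

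miR-24 had a different course. Its star arms together took 0.115% (0.102% to 0.128%) of all miR-24 counts in rtTA +dox, 0.139% (0.127% to 0.152%) in rtTA -dox, 0.202% (0.183% to 0.223%) in no rtTA +dox and 0.130% (0.115% to 0.146%) in no rtTA -dox. They were scarcest in the library where the miR-27 star arms were most frequent, and most frequent where those were scarcest. The interval of the lowest share overlaps those of both libraries without dox, so only the highest share stands clearly apart. With rtTA under dox the odds of miR-24-1* against miR-24 were lower by 2.36-fold (log2 -1.24, -1.81 to -0.68). Those of miR-24-2* were at -0.74 (-0.97 to -0.51), short of 2-fold. Among the 125 hairpins, which do not include those of miR-24, the odds of the rarer arm were lower by 2-fold or more in 18.4%. With the G trend subtracted the change of miR-24-1* was -0.96, short of 2-fold. Over the 125 hairpins the rarer arm held a median of 4.44%, 5.13%, 5.30% and 4.68% in the same order of libraries, so the star shares of miR-27 and of miR-24 lay below the typical hairpin in each library.

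**Figure D4:**
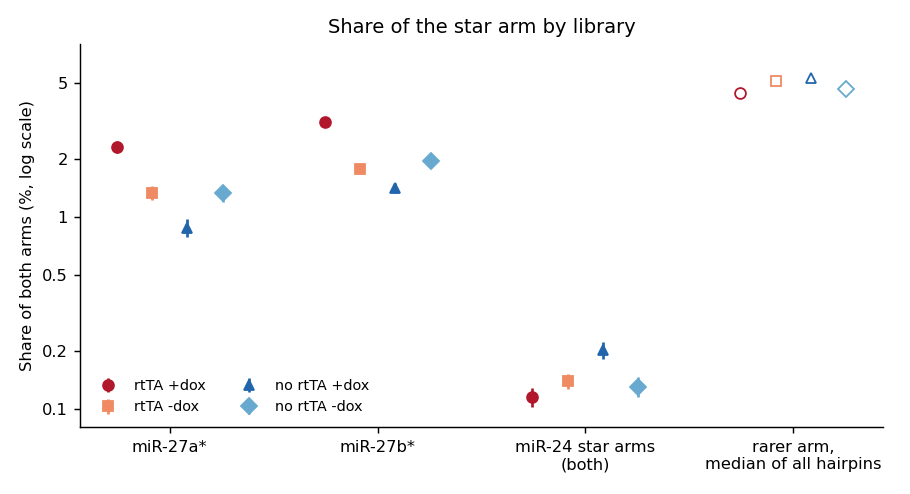
Share of the star arm in the counts of both arms, in percent on a log axis, with exact 95% counting intervals; open symbols give the median share of the rarer arm over 125 hairpins. In the rtTA +dox library miR-27a* (2.32%) and miR-27b* (3.12%) are highest. The miR-24 star arms are lowest there (0.115%), with an interval that overlaps those of both libraries without dox.

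The base composition of the mature sequences moved with the ratios. With dox in rtTA cells the log2 ratio rose by 0.43 for each 10 percentage points of G across the 372 microRNAs (Pearson's r 0.72, a description over microRNAs that share the same 2 libraries). The miR-23 guides hold 19.0% G, the miR-27 guides 23.8%, miR-24 31.8%, miR-27b* 31.8% and miR-27a* 36.4%, so the order of these on the G scale resembles the order of their ratios. The miR-24 star arms lie between on the G scale, with 27.3% for miR-24-2* and 26.1% for miR-24-1*. Their ratios did not follow that order. miR-24-2* was at -0.27 and miR-24-1* at -0.81 (on 39 and 80 counts), neither of them above the miR-27 guides at -0.26. The trend alone gives -0.37 at the G content of miR-23 and, once subtracted, leaves the -0.66 for miR-23a and -0.77 for miR-23b given above. For miR-27a* 0.18 of 0.55 is left and for miR-27b* 0.39 of 0.56. The part of base composition in these differences was not tested.

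The comparison with dox alone had a weaker trend of the other sign (-0.09 for each 10 percentage points, r -0.20). With rtTA alone the trend was near 0 (r -0.0038), and with rtTA under dox it was 0.51 for each 10 percentage points (r 0.69). Both strong trends thus involve the rtTA +dox library. With dox alone the miR-23 guides lay below the other microRNAs of exactly the same G content. At 19.0% G there were 11 other microRNAs past the floor, with log2 ratios from -0.24 to 0.96 (median 0.35), and 0 of the 11 lay below miR-23a (-0.43). With dox in rtTA cells the same 11 ranged from -1.29 to 0.54 (median -0.22), and 2 lay below miR-23a. After the trend was subtracted, the miR-23a to miR-27a change was -0.57 with dox in rtTA cells and -0.67 with dox alone, and that of miR-23b to miR-27b was -0.67 and -0.62. With rtTA under dox, by contrast, the trend took miR-23a to -0.015 and miR-23b to -0.0077.

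**Figure D5:**
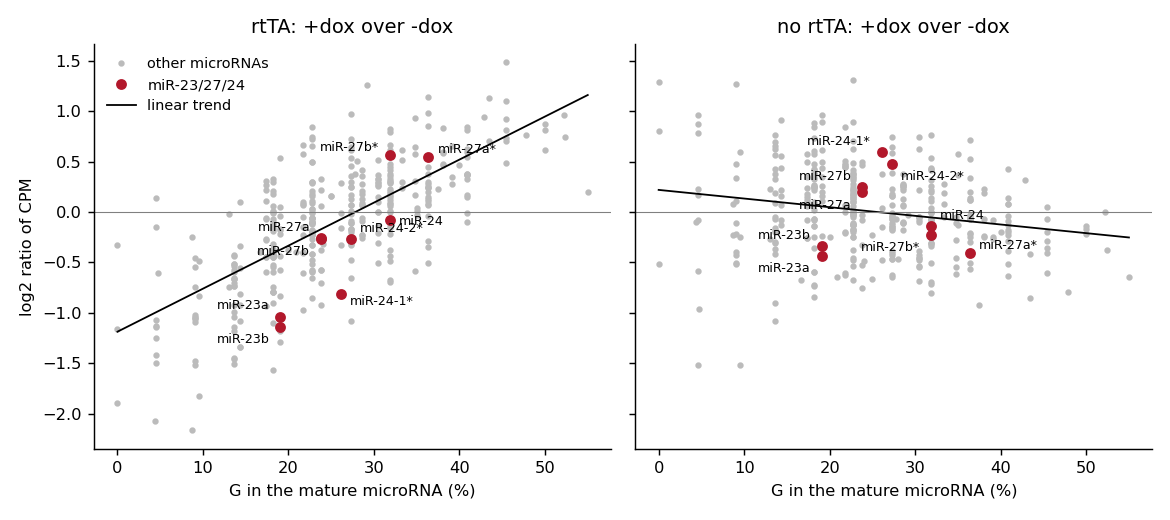
Log2 ratio of CPM with dox against the percentage of G in the mature microRNA, for rtTA cells (left) and cells without rtTA (right); red are the 9 microRNAs, grey the other microRNAs past the floor, and the line is the linear trend over all 372. miR-23a and miR-23b lie below the line in both panels, by 0.66 and 0.77 on the left and by 0.49 and 0.39 on the right.

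Over the 4 libraries, each miR-23 and miR-27 guide had its paralog as the closest of the other 4 guides. Likeness was measured as the root mean square difference of log2 CPM after centring each microRNA on its mean over the 4 libraries. miR-23a and miR-23b were 0.073 apart, with 0 of 363 other microRNAs closer to miR-23a and 4 closer to miR-23b; miR-23a and its cluster mate miR-27a were 0.36 apart. miR-27a and miR-27b were 0.14 apart, with 41 of the 363 closer to miR-27a and 30 closer to miR-27b. The star arm miR-24-2* was nearer to each of them, at 0.13 from miR-27a and 0.094 from miR-27b. The nearest outside the 9 were miR-676* (0.078) and miR-421 (0.087) for miR-23a, and miR-676* (0.043) and miR-129-3p (0.059) for miR-23b. For miR-27a they were miR-29b (0.017) and miR-701 (0.037), for miR-27b miR-1195 (0.024) and miR-345-5p (0.051), and for miR-24 miR-222 (0.026) and miR-532-5p (0.033). With 4 libraries and 363 candidates close profiles are easily found, and these are descriptions.

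miR-128, whose seed overlaps that of miR-27 with a shift by 1 base, was far rarer, with 50.1 CPM in rtTA +dox, 56.5 in rtTA -dox, 74.5 in no rtTA +dox and 55.0 in no rtTA -dox. Like miR-27a and miR-27b it was highest in no rtTA +dox and lowest in rtTA +dox, with log2 ratios of -0.17 (-0.37 to 0.02) for dox with rtTA and 0.44 (0.24 to 0.64) for dox without. Markers of cell types in which these clusters are well studied were scarce. The 2 endothelial markers summed to 126 CPM in rtTA +dox, 134 in rtTA -dox, 175 in no rtTA +dox and 120 in no rtTA -dox, and 7 blood markers to 82.8, 100.5, 85.5 and 82.8 CPM, none of them at 0. With dox in rtTA cells the endothelial markers parted. miR-126-3p had a log2 ratio of 0.13 and miR-126-5p one of -1.18, which counted as lower. The 4 muscle markers summed to 592, 382, 246 and 262 CPM, highest in the library where miR-23 was lowest. Most of this sum was miR-206, with a mean of 352 CPM over the libraries. With dox in rtTA cells miR-206 had a log2 ratio of 0.71, while miR-1 was at -1.08 and miR-133a at -0.44. The median of the 3 muscle markers past the floor was -0.44 there, so they did not rise as a group. The 4 neuronal markers summed to 662, 538, 565 and 431 CPM, and the liver marker miR-122 had 2.51 to 3.99 CPM. The part of such cells in the differences was not tested.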

How the data were processed

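Small RNA was sequenced from 4 libraries of mouse embryonic fibroblasts, 1 per group, and groups were taken from the labels' titles. The authors deposited unnormalized counts per named microRNA, with 1 row for the shRNA and no zeros; unlisted microRNAs were set to 0 in that library. How reads were aligned and shared among similar microRNAs, and on which genome build, is not given in the sources used here. The 9 members were all rows named miR-23a, miR-23b, miR-27a, miR-27b or miR-24 with any star or locus suffix. Members and lists were chosen with earlier results of these data known.

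CPM were computed per 1000000 endogenous counts. A microRNA entered the comparisons if its mean CPM reached 3.14, which is 20 counts in the shallowest library (372 of 508). Ratios have exact conditional binomial 95% intervals; ratios of ratios and odds have delta-method intervals with 0.5 added to each count; shares have exact Clopper-Pearson intervals. No molecular identifiers are given, so PCR copies may be counted and all intervals cover counting error only. A count of 0 would allow up to 0.342 to 0.470 CPM (3 counts). The intervals and calls of ratios, and the interval of an odds ratio, were tested on simulated counts that held counting error only. The other computations were not simulated. The naming rule covered the 9, the shRNA, miR-128, markers and the 2 nearest profiles per guide strand. Alternatives were TMM factors (edgeR 4.0.16), DESeq2 1.42.0 size factors, other totals and floors, star arms left out, paralogs summed, and a linear trend on G subtracted. Python 3.11.15, scipy 1.17.1 and R 4.3.3 were used.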

Additional observations from a re-analysis of the deposited data

Results flagged for a closer look

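For 6 of the 9 microRNAs the dox ratio pointed one way with rtTA and the other way without, with both counting intervals on their side of 0. The same held for 125 of the 372 microRNAs past the floor (33.6%). Whether an interval leaves out 0 depends on the number of counts, and this share is not matched to the 9 in counts. The 6 include the miR-27 guides, which differ by 1 base and are not separate cases. The difference between the genotypes was not tested, since each dox ratio rests on 1 pair of libraries. On the log2 scale the ratio with rtTA minus the ratio without was -0.51 for miR-27b, -0.46 for miR-27a, 0.79 for miR-27b*, 0.95 for miR-27a*, -0.74 for miR-24-2* and -1.39 for miR-24-1*. The miR-27 guides were below 0 with rtTA and above it without, their star arms the reverse, and the miR-24 star arms went the way of the miR-27 guides.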

How the results depend on the processing

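No paired analysis was possible because each group has 1 library, and no library could be left out. With dox in rtTA cells 2 of the 9 counted as lower under each scaling and floor tried; with near-identical paralogs summed it was 1, and with the G trend subtracted 0 (miR-23a -0.66, miR-23b -0.77), when 3 microRNAs counted as higher and 5 as lower over the whole table. With rtTA under dox the 1 call became 0 by TMM, by DESeq2, by a total without the 10 most abundant, with star arms left out and with the G trend subtracted; TMM and DESeq2 moved the median of all ratios there by 0.10. For the difference of the dox ratios the 1 call became 2 by TMM and 2 by DESeq2. The median log2 ratio of the 9 with dox in rtTA cells was -0.23 (TMM), -0.23 (DESeq2), -0.24 (without the 10 most abundant), -0.30 (total with the shRNA) and -0.25 (G trend). With dox alone it was -0.19, -0.17, -0.13 and, with the G trend, -0.089. With rtTA alone it was 0.20, 0.23, 0.20, 0.16 (paralogs summed) and 0.25 (G trend), and with rtTA under dox -0.015 (G trend). With rtTA under dox and the G trend subtracted, the arm changes of miR-27a and miR-27b were 0.77 and 0.75 and that of miR-24-1* was -0.96, under 2-fold; this setting was chosen once the values were known. The cause of these shifts was not tested. Over the recomputed values of single microRNAs and pairs, 188 stayed within their limits, 79 moved beyond them and 9 lost 2-fold. With the G trend subtracted the sign turned for miR-27a (0.0044) and miR-27a* (0.013) with rtTA alone and for the miR-23b to miR-27b change with rtTA under dox (0.013), none of them called. In rtTA without dox the whole table held 2 higher and 5 lower calls, and 3 and 4 by TMM or DESeq2. miR-24-1* rests on 39 to 80 counts, which limits its precision.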
